A study of Mus musculus with 8 samples.

Results

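SR splicing factors are a family of RNA-binding proteins that carry RNA recognition motifs at one end and a domain rich in arginine and serine at the other. They bind exonic enhancers and bring the splicing machinery to nearby splice sites, and several of them shuttle to the cytoplasm, where they take part in mRNA export and translation. Kinases of the SRPK and CLK families phosphorylate the arginine-serine domain, and many SR genes limit their own expression through transcripts that are substrates of nonsense-mediated decay. A fully grown mouse oocyte is transcriptionally silent, so that during meiotic maturation it draws on stored mRNAs that are either loaded on polysomes or kept off them.

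The SR genes described here were the rows of the deposited expression table with the symbols Srsf1, Srsf2, Srsf3, Srsf4, Srsf5, Srsf6, Srsf7, Srsf9, Srsf10 and Srsf11, and all 10 were found among its 25574 genes. RNA-seq had been performed on the non-polysomal (NP) and the polysomal (P) part of sucrose gradients, with 4 libraries in each dataset. The oocytes came from CD1 mice aged 8 weeks that had received 5 IU of pregnant mare serum gonadotropin 46 h earlier. They were isolated in 100 µM IBMX, which holds the germinal vesicle intact, and then released into medium without IBMX. Those that had undergone nuclear envelope breakdown (NEBD) during this culture were selected. At 180 min after release they were exposed to 0.1 mg/ml cycloheximide for 10 min, which keeps ribosomes on mRNA. Each profile used 200 pooled oocytes and gave 10 fractions, and all libraries shared this treatment, so by the labels the datasets differ in the part of the gradient. The question posed by the comparison was which SR mRNAs were found with polysomes at NEBD.

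Values are in FPKM, fragments scaled for gene length and for the reads of the library, and a value is therefore a share of its own library and not an amount of RNA per oocyte. The number of reads to which each library had been scaled, recovered from the steps between FPKM values, was 1299377 to 7594637 in NP and 2677946 to 4699328 in P. All 13 oocyte markers examined were above 0 in 7 of the 8 libraries, and Figla was listed at 0 in P2. The summed oocyte marker level was 7625 to 14752 FPKM in NP and 9501 to 37222 FPKM in P. The 13 cumulus and granulosa markers summed to 15.3 to 143 FPKM in NP and to 21.2 to 64.0 FPKM in P. Of these, Foxl2, Has2 and Ptx3 were listed at 0 in every library. Others did reach the level of SR genes in single libraries. Cyp19a1 was at 75.2 FPKM in NP4 and 62.6 FPKM in P2, Nr5a2 at 61.4 FPKM in NP3 and Cyp11a1 at 46.4 FPKM in NP4. Of 3 blood and immune markers, Ptprc and Hba-a1 were listed at 0 throughout, whereas the macrophage gene Cd68 reached 35.9 FPKM in NP1 and was listed at 0 in all P libraries. The part of other cells in the values below was not tested, and in such bulk libraries fewer cells of a type and less RNA per cell cannot be told apart.

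No SR gene passed the test between P and NP, which was limma on log2(FPKM + 1) over 14292 genes with an adjusted p below 0.1. The background for that call was 0.021% of the genes tested, or 3 genes. The study itself, from its own DESeq2 comparison, reports Srsf1 mRNA as enriched in polysomes. That comparison used another method and threshold and listed many more transcripts than the 3 genes called here. The absence of a call here is therefore not a test of that report. Srsf1 was the SR gene whose datasets were separated, with a mean of 19.2 ± 14.1 FPKM in NP and 66.3 ± 19.3 FPKM in P (SD, n = 4 each), with no overlap between the libraries, a pattern with higher P values that 0.357% of all genes tested showed. By value, Srsf5, Srsf7, Srsf3, Srsf2 and Srsf10 were also higher in P and Srsf4, Srsf6, Srsf9 and Srsf11 were lower, but in these 9 genes the libraries of the datasets overlapped.

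The plot of FPKM by library shows all 80 values behind these statements.

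**Figure D1:**
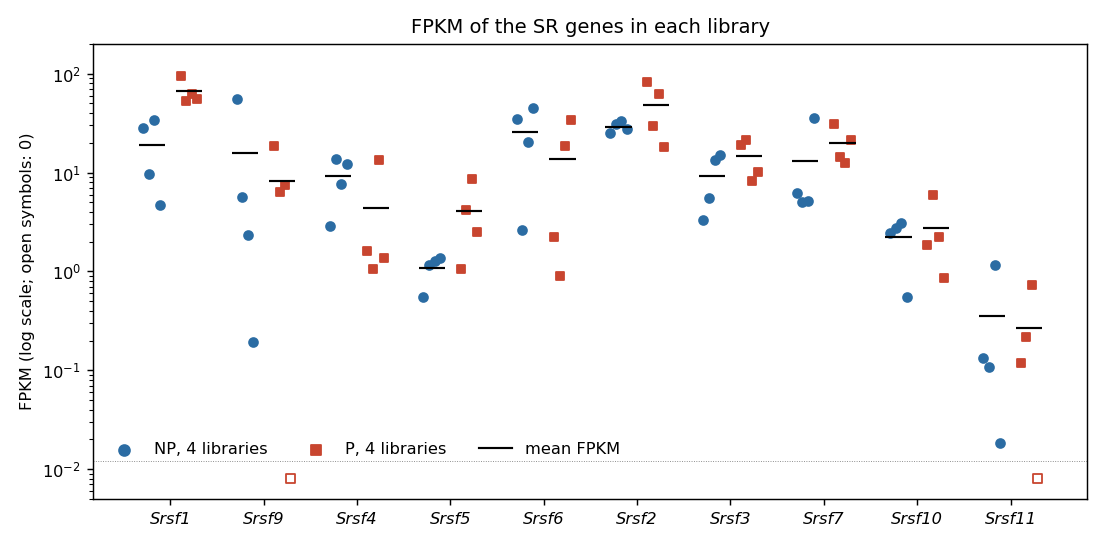
FPKM of the 10 SR genes (log scale) in the 4 NP libraries (circles) and the 4 P libraries (squares), with the mean as a horizontal line and values of 0 as open symbols under the dotted line. Srsf1 is the gene whose P libraries, at 52.7 to 94.6 FPKM, all lie above its NP libraries, at 4.75 to 33.8 FPKM.

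Cytoplasmic polyadenylation elements are short U-rich motifs near the 3′ end of maternal mRNAs that are bound by CPEB proteins in maturing oocytes. The motifs TTTTAT and TTTTAAT were searched on the transcript strand in the last 150 bases of the 3′ untranslated region of 1 principal transcript per gene (GENCODE M21, GRCm38). Srsf4, Srsf6 and Srsf10, that is 3 of the 10 SR genes, held at least 1 of them there, against 23.4% of the 18290 genes with a 3′ untranslated region of that length. The windows below hold the last match of Srsf6 and Srsf10 and, for Srsf1 and Srsf2, the genes with the highest P levels, the last match further upstream. Each is written 5′ to 3′ on the transcript strand, with the motif in capitals.
Srsf1 (chr11:88053564-88053593, plus strand, 174 bases from the motif to the 3′ end): ttgttgaaggtgTTTTATatatatgaagta
Srsf2 (chr11:116850775-116850804, minus strand, 886 bases from the motif to the 3′ end): tggcaaacttcaTTTTATgtgccattttgt
Srsf6 (chr2:162936996-162937025, plus strand, 108 bases from the motif to the 3′ end): acctacttcagtTTTTATgttcccactcct
Srsf10 (chr4:135869773-135869802, plus strand, 118 bases from the motif to the 3′ end): aggcatgtaaatTTTTATtagtaacagtag
All 10 transcripts held a match somewhere in the 3′ untranslated region, with 8 matches in the 4149 bases of Srsf1, 6 in the 2722 bases of Srsf10 and 5 in the 361 bases of Srsf9. A polyadenylation signal, AATAAA or ATTAAA, stood in the last 50 bases of 9 of the 10 transcripts, Srsf9 being the exception, against 75.9% of genes. These matches describe the annotated sequence and were not measured in the libraries.

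Srsf1 (chr11:88047373-88053755, plus strand), the founding family member, acts in splicing, export and translation and shuttles between nucleus and cytoplasm. Its FPKM values were 28.4, 9.70, 33.8 and 4.75 in NP1 to NP4 and 94.6, 52.7, 61.9 and 55.9 in P1 to P4. NP2 and NP4 were the low libraries, and the lowest P library was still above the highest NP library. The mean FPKM was 3.46 times higher in P, and on the log2(FPKM + 1) scale the difference was 2.05 (SE 0.70, 95% interval 0.54 to 3.55), with an unadjusted p of 0.0114 and an adjusted p of 0.416 from limma. Srsf1 was the 1 SR gene with an unadjusted limma p below 0.05 and higher values in P, a call made for 0.476% of all genes. Over 16 alternatives the log2 difference was 1.56 to 3.00 and the limma adjusted p was 0.108 to 0.731.

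The spread of Srsf1 differed in size between the datasets, as the highest NP library was 7.12 times the lowest, and in P this ratio was 1.80. Within its own library, Srsf1 lay at the 74.3 to 89.7 percentile of all genes in NP and at the 93.5 to 95.5 percentile in P. These ranks include genes at 0. Genes above 0 numbered 9139 to 11339 in P and 11703 to 13753 in NP, so an equal FPKM can rank higher in P. The recovered reads behind the values were 518, 72, 1406 and 206 in NP1 to NP4 and 2538, 964, 1570 and 855 in P1 to P4. The lowest of these, in NP2, belonged to the shallowest library, whereas the lowest FPKM value, in NP4, belonged to the deepest. An antisense gene, Gm11508, shares 98 of the 5710 exonic bases of Srsf1 and had a mean of 0.0781 FPKM in NP and 0.354 FPKM in P.

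Srsf9 (chr5:115327177-115333080, plus strand) is the family member closest to Srsf1 in domain structure. Its values were 55.5, 5.66, 2.32 and 0.194 FPKM in NP1 to NP4 and 18.8, 6.42, 7.44 and 0 FPKM in P1 to P4. The datasets overlapped, and both held a library near or at 0, namely NP4 and P4. The mean was 15.9 ± 26.5 FPKM in NP and 8.16 ± 7.81 FPKM in P (SD, n = 4), and the log2 difference was −0.07 (SE 1.24, 95% interval −2.74 to 2.60), with an adjusted p of 0.983 from limma. The order of the means rested on NP1, since without it the mean in NP was 2.73 FPKM and that in P was 2.99 times higher. NP1 was also the library with the highest Cd68 value. Per the labels the oocytes had been denuded of surrounding cells. Ptprc and Hba-a1 were listed at 0 in every library and so do not tell NP1 from the others. The cumulus and granulosa markers summed to 16.7 FPKM in NP1, against 15.3, 97.7 and 143 FPKM in NP2 to NP4. The part of other cells in the Srsf9 value was not tested.

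Srsf4, Srsf5 and Srsf6 encode SR proteins with a pair of RNA recognition motifs, and they did not lean the same way by value. Srsf4 (chr4:131873617-131901706, plus strand) had 2.90, 13.8, 7.64 and 12.3 FPKM in NP1 to NP4 and 1.61, 1.05, 13.3 and 1.36 FPKM in P1 to P4. Apart from P3, every P library was below every NP library. The mean was 9.16 ± 4.93 FPKM in NP and 4.34 ± 6.0 FPKM in P, 2.11 times higher in NP, and this ratio was 6.82 without P3. The log2 difference was −1.30 (SE 0.93, 95% interval −3.30 to 0.70), with an adjusted p of 0.639 from limma. The gene Gm12992 on the opposite strand shares 1532 of the 3561 exonic bases of Srsf4, or 43.0%. Gm12992 was highest in NP2 and P3, at 11.3 and 8.73 FPKM, the libraries in which Srsf4 was highest. The library kit does not mark strand, so reads of the shared bases cannot be assigned to either gene.

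Srsf6 (chr2:162931528-162937121, plus strand) had 35.2, 2.64, 20.2 and 45.5 FPKM in NP1 to NP4 and 2.24, 0.904, 18.4 and 33.8 FPKM in P1 to P4. High and low libraries occurred in both datasets, and the highest P library was 37.4 times the lowest. The mean was 25.9 ± 18.6 FPKM in NP and 13.8 ± 15.5 FPKM in P, with a log2 difference of −1.24 (SE 1.08, 95% interval −3.56 to 1.08) and an adjusted p of 0.668 from limma. The NP mean was 1.87 times the P mean, and 3.61 times without P4, and the log2 difference ran from −2.03 without NP2 to −0.55 without P2. Srsf5 (chr12:80945504-80950507, plus strand), a low gene, had 0.550, 1.16, 1.27 and 1.35 FPKM in NP1 to NP4 and 1.07, 4.22, 8.57 and 2.53 FPKM in P1 to P4. In Srsf5 all P libraries except P1 were above all NP libraries. The mean was 1.08 ± 0.365 FPKM in NP and 4.10 ± 3.25 FPKM in P, a ratio of 3.78 that was 2.40 without P3. Its log2 difference was 1.09 (SE 0.77, 95% interval −0.56 to 2.73), with an adjusted p of 0.637 from limma, and its values rested on 6 to 152 recovered reads.

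Srsf2, Srsf3 and Srsf7 carry a single RNA recognition motif, and the latter pair serve as adaptors for the export receptor NXF1, whereas Srsf2 is mostly kept in the nucleus. Srsf2 (chr11:116849901-116853094, minus strand) had 25.4, 30.7, 33.5 and 27.3 FPKM in NP1 to NP4 and 81.7, 29.8, 62.7 and 18.1 FPKM in P1 to P4. The NP libraries lay close together, within 1.32 times of each other, whereas P1 and P3 were above and P4 was below all of them. The mean was 29.2 ± 3.61 FPKM in NP and 48.1 ± 29.3 FPKM in P, with a log2 difference of 0.48 (SE 0.64, 95% interval −0.89 to 1.85) and an adjusted p of 0.759 from limma. The antisense gene 1110005A03Rik spans Srsf2, shares 460 of its 2958 exonic bases and had 31.2, 16.0, 17.2 and 9.42 FPKM in NP1 to NP4 and 81.6, 21.3, 40.2 and 11.2 FPKM in P1 to P4. Both genes were highest in P1, then in P3, and reads of the shared bases cannot be assigned to either. A further antisense gene, Mfsd11, shares 288 of those bases and had a mean of 3.15 FPKM in NP and 0.173 FPKM in P.

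Srsf7 (chr17:80200089-80207305, minus strand) had 6.19, 5.07, 5.18 and 36.1 FPKM in NP1 to NP4 and 31.4, 14.2, 12.6 and 21.5 FPKM in P1 to P4. NP4 alone kept the datasets from separating. The mean was 13.1 ± 15.3 FPKM in NP and 19.9 ± 8.54 FPKM in P, a ratio of 1.52 that was 3.64 without NP4. The log2 difference was 0.98 (SE 0.79, 95% interval −0.71 to 2.67), with an adjusted p of 0.655 from limma. Srsf3 (chr17:29032673-29043366, plus strand), the smallest SR protein, had 3.31, 5.57, 13.5 and 15.0 FPKM in NP1 to NP4 and 19.0, 21.6, 8.28 and 10.2 FPKM in P1 to P4. P1 and P2 were above all NP libraries, and P3 and P4 were within their range. Its mean was 9.34 ± 5.76 FPKM in NP and 14.8 ± 6.52 FPKM in P, with a log2 difference of 0.71 (SE 0.76, 95% interval −0.93 to 2.35) and an adjusted p of 0.713 from limma.

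Srsf10 and Srsf11 were among the lowest SR genes. Srsf10 (chr4:135855747-135869908, plus strand), which represses splicing when it is dephosphorylated, had 2.46, 2.75, 3.08 and 0.545 FPKM in NP1 to NP4 and 1.85, 5.92, 2.25 and 0.853 FPKM in P1 to P4. Library 4 was the lowest in both datasets. Its log2 difference was 0.14 (SE 0.79, 95% interval −1.56 to 1.83), with an adjusted p of 0.946 from limma. Srsf11 (chr3:158010473-158036639, minus strand) had 0.132, 0.108, 1.16 and 0.0185 FPKM in NP1 to NP4 and 0.119, 0.219, 0.725 and 0 FPKM in P1 to P4, from 0 to 60 recovered reads. Replicate 3 was the highest library in both datasets, and the log2 difference was −0.06 (SE 0.32, 95% interval −0.75 to 0.64), with an adjusted p of 0.945 from limma. The intervals of Srsf9, Srsf6 and Srsf10 include differences of more than 2-fold in FPKM + 1 in either direction. Those of Srsf2, Srsf4 and Srsf7 include such differences in the direction of their estimate. The intervals do not measure which differences the test could detect. The lower the FPKM, the smaller a 2-fold difference in FPKM is on this scale. The intervals of Srsf3, Srsf5 and Srsf11 therefore also include a 2-fold difference in FPKM in either direction.

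**Figure D2:**
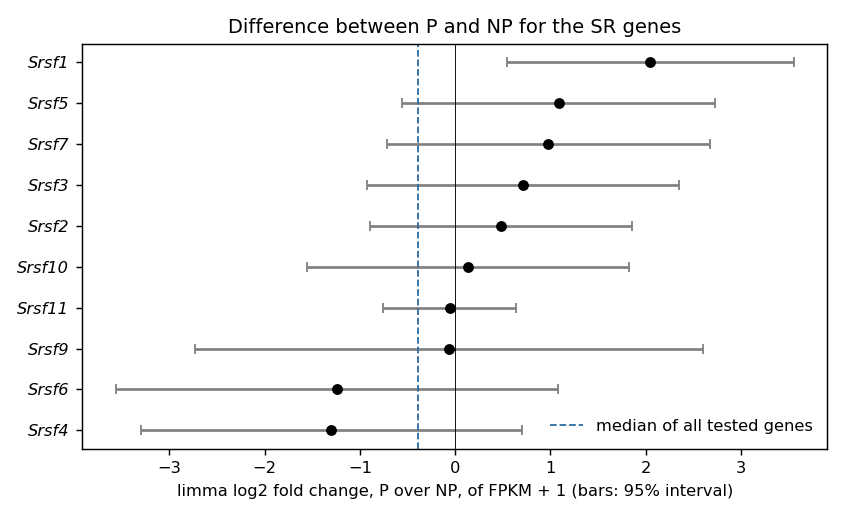
Limma log2 fold change of P over NP on FPKM + 1 for each SR gene, with its 95% interval as a bar and the median of all tested genes, −0.39, as a dashed line. Srsf1 is the gene whose interval, 0.54 to 3.55, lies above 0.

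Counted over the family, 6 of the 10 genes had a log2 difference above 0, and the same held for 28.6% of all genes tested. The median difference of the SR genes was 0.31, and that of all tested genes was −0.39. The mean FPKM was more than 2 times higher in P for 2 SR genes, Srsf1 and Srsf5, against a background of 16.9%, and more than 2 times higher in NP for 1, Srsf4, against 40.6%. No SR gene had an unadjusted limma p below 0.05 with higher values in NP, and none had every NP library above every P library, the backgrounds being 9.47% and 5.92%. With 10 genes that share libraries, these counts are a description and carry no test.

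The scaling of the libraries set the zero point of these differences. The median over all tested genes was −0.39 on the FPKM as deposited, −0.47 with one summed FPKM per library, −0.02 after quantile normalization and 0.57 after centring on library medians. Srsf4 and Srsf6 were below the median of all genes under each of the 4 scalings, and the other SR genes were above it. The log2 differences of Srsf9 and Srsf11 changed sign between scalings, while both stayed above that median.

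**Figure D3:**
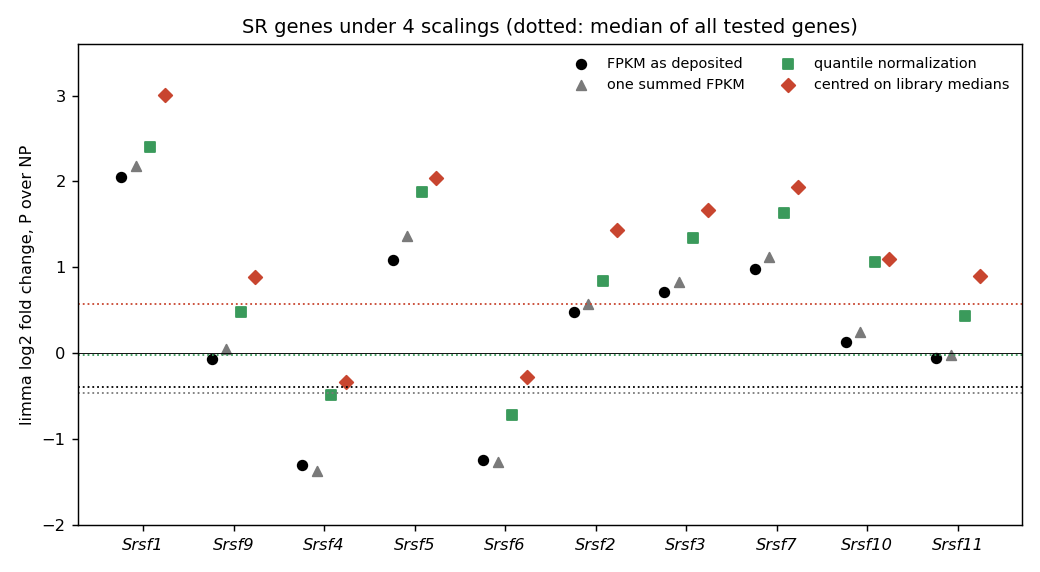
Limma log2 fold change of P over NP of the 10 SR genes under 4 scalings of the libraries (symbols), with the median of all tested genes under each as a dotted line of the same colour. Srsf1 is highest under each scaling, from 2.05 as deposited to 3.00 after centring on library medians, and Srsf9 moves from −0.07 to 0.89.

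The SR genes together held 160, 77.2, 122 and 143 FPKM in NP1 to NP4 and 252, 137, 196 and 144 FPKM in P1 to P4. The summed level was 125 ± 35.8 FPKM in NP and 182 ± 53.5 FPKM in P (SD, n = 4), and the libraries overlapped. As a share of all FPKM in the library it was 0.0232 ± 0.00675% in NP and 0.0361 ± 0.0119% in P, again with overlap.

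In the composition of the family, the share of Srsf1 was without overlap between the datasets, and the shares of the other 9 genes overlapped. Srsf1 made up 17.8, 12.6, 27.8 and 3.32% of the summed SR FPKM in NP1 to NP4 and 37.5, 38.4, 31.5 and 38.8% in P1 to P4. Its mean share was 15.4 ± 10.2% in NP and 36.5 ± 3.39% in P (SD, n = 4), and this rests on the same Srsf1 values as above. A share within the family does not change when a whole library is multiplied by a constant factor. The NP libraries were led by Srsf9 in NP1, by Srsf2 in NP2 and by Srsf6 in NP4, whereas in NP3 Srsf1 and Srsf2 were level, at 27.8 and 27.6%. Srsf1 led in P1, P2 and P4, and in P3 it was level with Srsf2, at 31.5 and 32.0%.

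**Figure D4:**
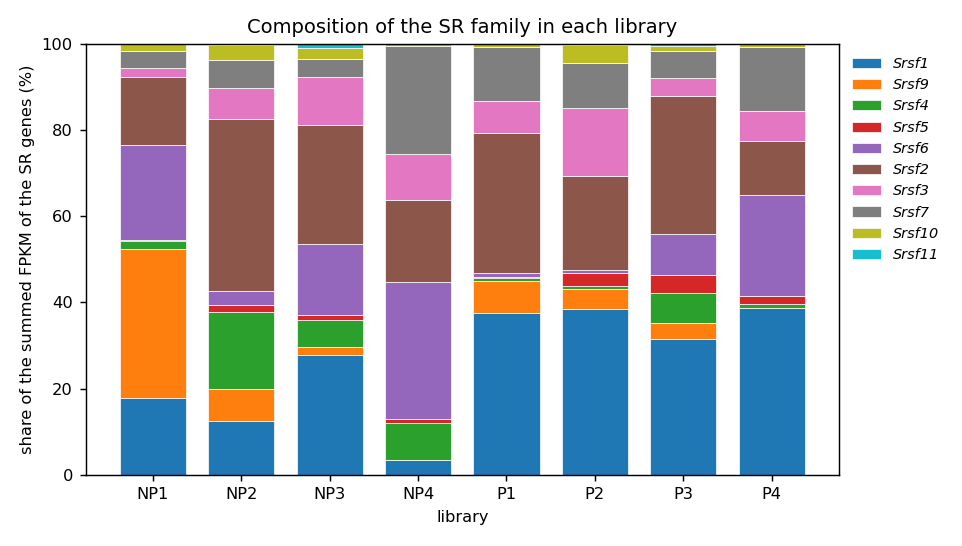
Share (%) of each SR gene in the summed FPKM of the 10 SR genes in each of the 8 libraries, as bars stacked to 100%. The Srsf1 segment at the base is 3.32 to 27.8% in the NP libraries and 31.5 to 38.8% in the P libraries, and the Srsf9 segment is widest in NP1.

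Ordered by mean FPKM, the NP dataset ran Srsf2, Srsf6, Srsf1, Srsf9, Srsf7, Srsf3, Srsf4, Srsf10, Srsf5 and Srsf11. In this order the libraries of each gene overlapped with those of the next. The P dataset ran Srsf1, Srsf2, Srsf7, Srsf3, Srsf6, Srsf9, Srsf4, Srsf5, Srsf10 and Srsf11, and there the libraries of Srsf10 and Srsf11 were the only neighbours without overlap. Srsf12, the remaining family gene examined, was at 1.96 FPKM in NP2 and listed at 0 in the other 7 libraries.

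The annotation lists transcripts marked as substrates of nonsense-mediated decay for 9 of the 10 genes, Srsf10 being the exception, and transcripts with a retained intron for 8. Gene-level FPKM does not separate them from the coding transcripts, so a P or NP value sums all forms of a gene.

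The genes that act on SR proteins were then examined, and none of them passed the adjusted limma threshold. Of 9 SR protein kinases, 4 were higher in P and 5 in NP by value, where 28.6% of all genes were higher in P. Their median log2 difference was −0.11, and 2 had an unadjusted limma p below 0.05, both with higher values in NP, where the background was 9.47%. The first was Srpk2, a cytoplasmic SR protein kinase, with 15.3, 13.4, 39.2 and 20.3 FPKM in NP1 to NP4 and 6.12, 8.05, 8.95 and 2.32 FPKM in P1 to P4. Every NP library of Srpk2 lay above every P library, a pattern seen in 5.92% of all genes. Its log2 difference was −1.64 (SE 0.74), with an unadjusted p of 0.0436 and an adjusted p of 0.493 from limma. The other was Srpk3, at 3.83, 2.49, 2.62 and 0.142 FPKM in NP1 to NP4 and 0.611 FPKM in P1, and it was listed at 0 in P2 to P4. Its log2 difference was −1.36 (SE 0.55), with an unadjusted p of 0.0264 and an adjusted p of 0.450 from limma.

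Clk2, a nuclear kinase of the CLK family, had the highest mean of the kinases. It stood at 107, 111, 84.2 and 54.5 FPKM in NP1 to NP4 and at 433, 131, 254 and 2.96 FPKM in P1 to P4. P1 to P3 were above all NP libraries and P4 was far below them, and the log2 difference was 0.00 (SE 1.13), with an adjusted p of 0.999 from limma.

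Of the 27 SR-related genes tested, which encode other proteins with arginine-serine domains, 10 were higher in P and 17 in NP by value, against the same 28.6%, with a median log2 difference of −0.36. None had an unadjusted limma p below 0.05, a call made for 0.476% of all genes with higher values in P and for 9.47% with higher values in NP. Of the 27, 1 had every NP library above every P library, the low gene Luc7l2, against 5.92% of all genes. The highest of them, U2af2, the large subunit of the factor that binds the polypyrimidine tract, had 71.0 ± 28.6 FPKM in NP and 55.9 ± 48.8 FPKM in P.

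Among the 4 transport partners 1 was higher in P and 3 in NP by value, with a median of −0.08 and no unadjusted limma p below 0.05. The highest over the 8 libraries, Nxf1, the mRNA export receptor, had 210, 276, 230 and 311 FPKM in NP1 to NP4 and 39.0, 262, 301 and 0.981 FPKM in P1 to P4. Its NP libraries were close together, whereas its P libraries ranged from near 0 to the level of NP, and in P its mean of 151 FPKM was below those of Tnpo1 and Nxt1, at 199 and 175 FPKM. Of 8 genes of nonsense-mediated decay 3 were higher in P and 5 in NP by value, against the same 28.6%. Their median was −0.61, and again none had an unadjusted limma p below 0.05. With lists this small, these counts are a description and carry no test. The highest of these, Upf1, the helicase of the pathway, had 119 ± 46.0 FPKM in NP and 88.7 ± 32.7 FPKM in P.

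The genes whose log2(FPKM + 1) was most like that of Srsf1 over the 8 libraries, among 6415 genes with a mean above 10 FPKM, were Zfp280b, Brd1 and Calu, with Pearson r of 0.936, 0.933 and 0.924. These values describe 8 libraries that differ in depth and come from both datasets. Calu had 42.4, 12.2, 58.0 and 9.60 FPKM in NP1 to NP4, high and low in the same NP libraries as Srsf1, and 62.0, 36.3, 58.9 and 76.8 FPKM in P1 to P4.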

How the data were processed

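RNA of pooled gradient fractions was depleted of rRNA, amplified as cDNA and made into Nextera libraries, 4 for NP and 4 for P. The authors trimmed reads with Trim Galore 0.4.1, checked them with FastQC 0.11.5, aligned them with HISAT2 2.0.5 on GRCm38 and deposited FPKM values per gene and library from Seqmonk. The gene annotation, strand setting and treatment of multiply mapped reads are not given in the sources used here. Further deposited tables hold dataset means and ratios, and DESeq2 fold changes and p-values of the authors' own comparison, and were not used.

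Datasets and replicate numbers were taken from sample titles. The study describes the 4 profiles as biological replicates, each divided into NP and P pools, but whether libraries of equal number stem from one profile is not stated there. By its methods the NP pool holds the fractions of ribosomal subunits and monosomes as well as stored mRNA. The top fraction of the gradient was left out of both pools, and the paper does not exclude that it held some stored mRNA. Genes with a mean above 0.1 FPKM in at least 1 dataset were compared with the 2-sided test of limma 3.58.1 (lmFit, eBayes with trend, R 4.3.3) on log2(FPKM + 1), with Benjamini-Hochberg adjustment over all 14292 genes and a threshold of 0.1. All 10 SR genes passed this filter. Fold changes on this scale understate those of low genes. Deviations from dataset means of same-numbered libraries correlated at 0.0518 to 0.251 over 11374 genes.

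FPKM being whole reads divided by length and library size, reads were recovered for 13590 genes, 87.2% of those with a value, to within 0.01 read, with the annotated exon length for 6978 genes and a searched length for the rest. One read on 1 kb was worth 0.132 to 0.770 FPKM. Reads from amplified cDNA are not independent molecules. The limma and recovery steps were tested on simulated data. Alternatives were a pseudocount of 0.1, a filter at 1 FPKM or none, 3 scalings, a replicate block, voom on recovered reads of genes with at least 10 reads, and leaving out each library.

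The SR genes and all lists were chosen with earlier results of these data known. All SR genes are given with their values. From each further list, genes with an unadjusted p below 0.05 (at most 4) and the gene with the highest mean FPKM were named, and so were the 3 genes most like Srsf1. Luc7l2, Srsf12, the antisense genes and the markers named were added for a count or an overlap. Python 3.11.15 and matplotlib 3.10.9 were used for summaries and figures. The motif window of 1 of the SR genes is not reported here.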

Additional observations from a re-analysis of the deposited data

Results flagged for a closer look

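In 4 of the 20 groups of 4 libraries (10 SR genes in 2 datasets) 1 library stood apart from the others, its gap to the next, as a share of the range of the group, being above the 95% critical value of Dixon, which chance gives in about 1 in 20 groups of normally distributed values. FPKM values need not be normally distributed, so the number of such groups is given with no comparison with chance. These were Srsf9 at 55.5 FPKM in NP1, Srsf4 at 13.3 FPKM in P3, Srsf7 at 36.1 FPKM in NP4 and Srsf11 at 1.16 FPKM in NP3. Each was the highest value of its group, and the 4 values fell in 4 different libraries.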

How the results depend on the processing

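The median over the SR genes (0.31 as reported), the number with an unadjusted limma p below 0.05 (1) and the number with every P library above every NP library (1) changed with the scaling, to 1.27, 6 and 3 after centring on library medians and to 0.95, 2 and 2 after quantile normalization. All genes moved with these scalings, since 2719 and 364 of the 14292 genes had an unadjusted limma p below 0.05 with higher values in P, against 68 as reported, and the median of all genes was 0.57 and −0.02, against −0.39. No SR gene passed the adjusted threshold under any alternative. Leaving out 1 library gave medians of 0.14 to 0.82 (0.82 without P4), 1 to 1 genes with an unadjusted p below 0.05, 0 to 0 genes past the adjusted threshold and 1 to 2 separated genes. The second was Srsf7 without NP4 and Srsf5 without P1. The direction of Srsf9 (−0.07) turned to 0.050 with one summed FPKM, 0.89 after median centring, 0.48 after quantile normalization and 0.24 with voom on recovered reads, and ran from −0.86 to 0.99 when 1 library was left out (0.99 without NP1, 0.79 without P4). That of Srsf11 (−0.06) turned to 0.90 after median centring and 0.43 after quantile normalization, and ran from −0.22 to 0.19 (0.19 without NP3, 0.05 without P4). That of Srsf10 (0.14) ran from −0.22 to 0.41 (−0.18 without NP4, −0.22 without P2). Under the scalings Srsf9 and Srsf11 stayed above the median of all genes. The cause of the turns was not tested. In comparisons of single genes with an alternative, 147 kept direction and side of the threshold and 12 turned. With the filter at 1 FPKM, 9 SR genes were tested, without Srsf11.

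With the replicate number as a replicate block the median stayed at 0.31, 1 SR gene had an unadjusted limma p below 0.05 and Srsf1 had an adjusted p of 0.318. Over all genes the block gave 1 call against 3, and voom 124 of 12540. Same-numbered libraries correlated at 0.139, 0.0518, 0.251 and 0.155 and others at −0.135 to 0.136. For each P library the same-numbered NP library had the highest correlation, although for P1 that with NP2 was close, at 0.136. No source states that a number marks the same profile, and for that reason the fit reported here has no block. With the block the SE fell from 1.24 to 0.88 for Srsf9 and from 1.08 to 0.80 for Srsf6, and rose slightly for Srsf3, Srsf5 and Srsf10. The lowest values rest on few reads, such as 0 reads of Srsf9 and Srsf11 in P4, and their counting error is large.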

Other observations

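Some genes of SR protein regulation had P4 values far from those of P1 to P3, and they were chosen after their values were seen, with no count over a list. P4 had 9139 genes above 0, against 10287 to 11339 in P1 to P3. Clk2 stood at 2.96 FPKM in P4 and at 131 to 433 FPKM in P1 to P3, and Srrm2, a large arginine-serine protein of nuclear speckles, at 1.48 FPKM against 11.9 to 36.9 FPKM. Nxf1 was low in P1 as well, at 39.0 FPKM, and reached 0.981 FPKM in P4. Tnpo1, a nuclear import receptor, went the other way, with 301 FPKM in P4 and 90.5 to 203 FPKM in P1 to P3. Srsf1 was at 55.9 FPKM in P4, within the 52.7 to 94.6 FPKM of the other P libraries.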
